A study of Drosophila melanogaster with 5 samples.

Results

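Tumors carrying Ras overexpression alone were set against control eye-antennal discs, gene by gene. The comparison used 2 of the 5 arrays of the series, 1 from each group. Eye-antennal discs are the larval epithelia from which the adult eye, antenna and head capsule develop, and all larvae were third-instar. Per the labels, the groups were tumors of Ras overexpression alone (Ras), tumors of Sras mutant 1, Sras mutant 2 or a scrib mutant, each with Ras overexpression, and 79E control discs (WT control). Tumor clones were marked with GFP by MARCM, a technique that makes marked mutant clones within an otherwise unmarked animal. The Ras allele, the promoter that drove it, the alleles of the mutants and the number of animals behind each array are not stated in the labels, and nothing says that several discs or animals were pooled. The 3 mutant tumors carry Ras as well and are given as context, above all for transcripts of other tissues.

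Ras is a small GTPase that relays signals from receptors such as the EGF receptor (EGFR) through the Raf, MEK and ERK kinases to ETS transcription factors. In the eye disc this route recruits photoreceptors and promotes cell survival, and it switches on its own inhibitors, among them the secreted protein Argos and the intracellular protein Sprouty. Activated Ras on its own gives overgrown clones that usually stay in place, and oncogenic Ras can also set off senescence programs.

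All levels below are log2 array values after quantile normalization, and each difference is Ras minus WT control. A probe set named each gene where it carried exactly 1 gene symbol, which held for 13647 of 18952 probe sets and 11982 genes. Of these genes, 7850 were kept because at least 1 array reached the filter value of 6.36, the limit used here for dim values. With 1 array a side there was no replicate check and no test, so every difference compares these arrays and not the conditions. Other values serve as guides to the spread. The differences of all 7850 kept genes had a median of 0.02 and an SD of 0.35. Of these genes, 4284 (54.6%) lay above 0 and 3553 below 0. Where a gene had a second probe set above the filter, the 2 differences lay a median of 0.235 apart over 639 pairs, and the 95th percentile of that gap was 0.753.

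Ras lay at least 2-fold above WT control for 55 genes and at least 2-fold below it for 107. These were 0.701% and 1.36% of the kept genes, or 2.06% in either direction. The higher genes included feedback inhibitors of the Ras route, photoreceptor genes, the relaxin-like hormone gene Ilp8 and some gut and cuticle genes. The lower genes included crystal cell and plasmatocyte genes, metallothioneins, pigment and melanization genes and a steroid synthesis gene. The balance of higher and lower genes moved with the scaling. Centring each array on its median gave 61 higher and 77 lower genes of 7837 kept. Centring on 25 eye and antennal identity genes gave 40 and 152 of 8259 kept, since the filter was set anew for each scaling. Centring on identity genes moved the median difference of all genes to −0.12.

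**Figure D1:**
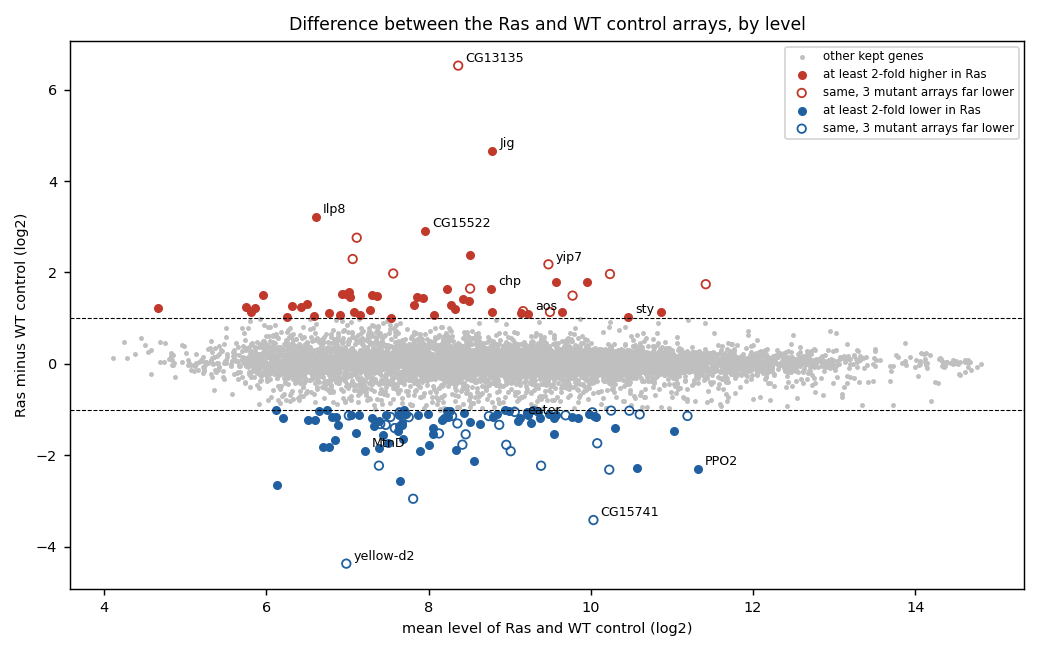
Difference between the Ras and WT control arrays (y axis, log2) against their mean level (x axis, log2) for 7850 genes. Red points are the 55 genes at least 2-fold higher in Ras and blue points the 107 at least 2-fold lower; open circles mark those whose 3 mutant arrays all lay at least 2 log2 units under the mean of Ras and WT control, and dashed lines mark 2-fold.

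The tissue on the arrays was checked first. Most kept retinal determination genes, which help define the disc, were well above the filter on both arrays. The exception was ct, below the filter at 6.01 in Ras and 5.96 in WT control. The retinal determination genes eya, so and ey read 10.02, 8.86 and 8.72 on the Ras array, against 9.63, 8.55 and 8.66 on the WT control array. Over 11 kept genes of that list the mean levels on the Ras and WT control arrays were within 0.1 of each other. Markers of other larval tissues were high on the same 2 arrays. Salivary gland markers (13 genes, among them the glue protein genes) had a mean level of 12.94 in Ras, 7.01, 8.43 and 6.79 for Sras mutant 1, Sras mutant 2 and the scrib mutant, and 13.03 in WT control. Muscle markers (20 genes) had means of 10.68 in Ras, 8.22, 8.04 and 7.94 in the mutants in the same order, and 10.64 in WT control. Ras and WT control thus held nearly equal mean levels of salivary gland, muscle and fat body markers (10.78 and 10.70 for 14 fat body genes). Within these lists, members lay on both sides of 0. Their differences ran from −0.81 to 0.89 for salivary gland, −0.45 to 1.18 for muscle and −0.675 to 1.65 for fat body markers. The brightest glue protein gene, Sgs7, read 14.81 on both arrays, near the top of the range. Whether the arrays held equal amounts of these tissues was not tested. The means differed more for larval gut markers. They were 8.94 in Ras, 6.36, 6.30 and 6.21 in the mutants and 8.19 in WT control. Ring gland markers went the other way, at 9.37 in Ras and 9.90 in WT control.

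**Figure D2:**
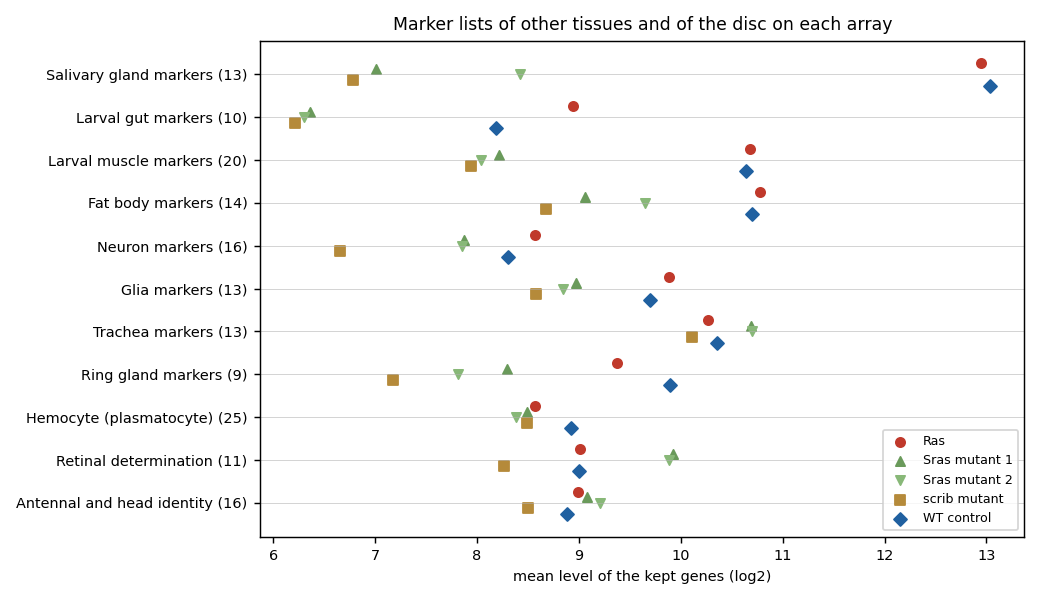
Mean log2 level (x axis) of the kept genes of 9 marker lists of other cell types and 2 lists of disc identity genes (y axis, number of kept genes in brackets) on each of the 5 arrays. Ras and WT control sit within 0.1 of each other for salivary gland, muscle, fat body and retinal determination genes and further apart for gut, ring gland, neuron and plasmatocyte genes.

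Genes whose 3 mutant arrays all lay at least 2 log2 units below the mean of Ras and WT control, as 11 of the 13 salivary gland markers did, made up 3.26% of the kept genes. They made up 20% of the higher genes (11 of 55) and 29.0% of the lower genes (31 of 107). With the stricter demand that the mutants lie that far below both arrays, the counts were 5 of 55, 21 of 107 and 211 of 7850. The 55 higher genes had median levels of 8.59 in Ras, 7.26, 7.15 and 6.26 for Sras mutant 1, Sras mutant 2 and the scrib mutant, and 6.68 in WT control. The 107 lower genes had medians of 7.50 in Ras, 6.54, 6.57 and 5.79 in the mutants and 8.89 in WT control. Both sets were dimmer than the kept genes as a whole, whose median was 9.14 in Ras and in WT control. WT control read below the filter for 19 of the higher genes, and Ras did so for 18 of the lower genes. For those genes the size of the difference is a lower bound and their rank has no meaning.

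Probe sets at the ends of control transcripts gave a measure of RNA integrity. In the deposited values, the probe set near the 3′ end exceeded that near the 5′ end by 0.61 to 3.04 in Ras and by 0.54 to 2.72 in WT control over 6 pairs, and Ras was the higher array in each pair. The Actin pair differed most between the arrays, with 1.52 in Ras and 0.77 in WT control. Grouped into 4 equal bins by gene span, kept genes had median differences between −0.0045 and 0.0589. These spans reach 396036 bases and are not transcript lengths, so the bins cannot measure RNA integrity. The part of RNA integrity in the differences of single genes was not tested.

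Of the inhibitors that Ras signalling itself induces, aos and sty were at least 2-fold higher in Ras. The gene aos, whose secreted product binds the EGFR ligand Spitz, read 9.78 in Ras and 8.68 in WT control, a difference of 1.09 (2.14-fold). It was also above WT control on the other arrays with Ras, at 10.46, 10.35 and 10.65 for Sras mutant 1, Sras mutant 2 and the scrib mutant. The gene sty, which encodes Sprouty, read 10.97 in Ras, 10.92, 10.96 and 12.02 in the mutants and 9.94 in WT control, a difference of 1.03. It had a second probe set above the filter, which gave 0.97. All 4 arrays with Ras thus exceeded WT control for both genes.

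Further inhibitors differed less. Mkp3, a phosphatase of ERK, differed by 0.33 with 9.39 in Ras and 9.06 in WT control, and its second probe set gave 0.56. The receptor inhibitor kek1 differed by 0.30, its relative kek2 by 0.33, edl by 0.40, and aop, the ETS repressor Yan, by 0.27. The RasGAP gene Nf1 differed by 0.30, and its further probe sets gave −0.09 and 0.42. Cbl, a ubiquitin ligase for the receptor, lay at −0.30 with a second probe set at 0.26. The list of feedback inhibitors held 9 kept genes of 11, with 2 at least 2-fold higher, 0 lower and a median of 0.33, against a median of 0.02 over all kept genes. Its median ranged from 0.19 to 0.39 over the 4 other scalings. Over all kept genes, 0.701% were at least 2-fold higher and 1.36% at least 2-fold lower.

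Ligands and the kinase cascade showed smaller values. The ligand genes Krn and spi differed by 0.31 and 0.24, S (Star, which escorts the ligand to its site of cleavage) by 0.16, and the germline ligand gene grk by −0.20. Egfr itself read 9.18 in Ras and 9.27 in WT control. The cascade list (10 kept genes) had no member past 2-fold, ran from −0.10 for Egfr to 0.34 for the adaptor gene dos, and had a median of 0.12 that turned to −0.02 when arrays were centred on identity genes. The Ras gene of the labels, Ras85D, was not analysed here. The genes of the other labels differed little between these arrays. Sras read 9.40 in Ras and 9.56 in WT control, and scrib read 10.76 in Ras and 10.56 in WT control, with other probe sets between −0.37 and 0.11 apart.

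**Figure D3:**
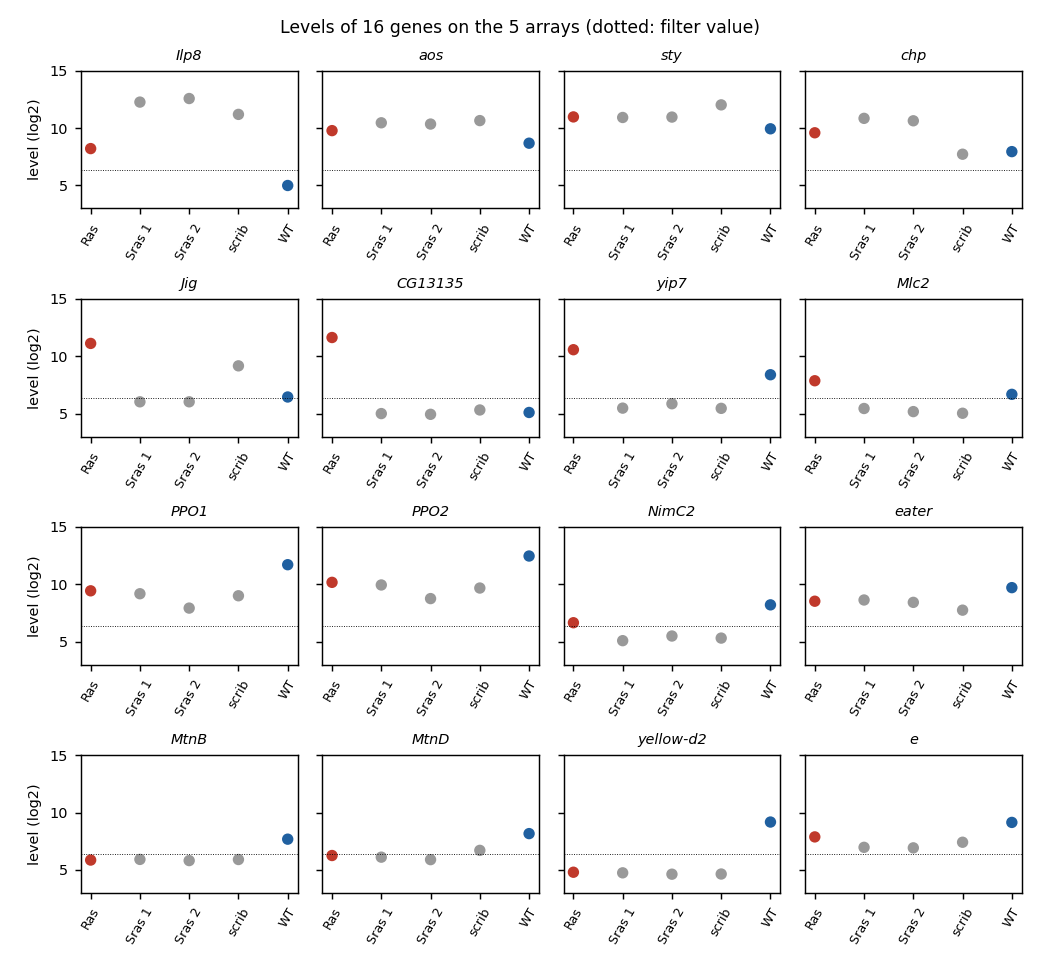
Log2 levels (y axis) of 16 genes on the 5 arrays, from Ras at the left through the 3 mutant tumors to WT control at the right; the dotted line is the filter value of 6.36. Ilp8, aos and sty are higher on all 4 arrays with Ras than in WT control, PPO1, PPO2, MtnB and MtnD are lower on all 4, and CG13135 is high in Ras alone.

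Among secreted signals, Ilp8 was at least 2-fold higher in Ras. Its product signals from damaged or overgrowing discs through the receptor Lgr3 to delay metamorphosis. It read 8.21 in Ras, 12.26, 12.57 and 11.19 for Sras mutant 1, Sras mutant 2 and the scrib mutant, and 5.00 in WT control. The difference of 3.21 (9.27-fold) starts below the filter value and is a lower bound. The 3 mutant tumors read higher still. Other factors linked to invasive disc tumors showed no such gap between Ras and WT control. The JAK/STAT ligand genes upd1 and upd2 read 6.78 and 5.69 in Ras and 6.73 and 5.62 in WT control, which for upd2 is below the filter on both arrays. Of the 18 kept JNK genes, Ilp8 was the only one past 2-fold. The damage-inducible gene Gadd45 differed by 0.63, the phosphatase and feedback gene puc by 0.33, the TNF ligand gene egr by −0.11 (−0.54 on a second probe set) and the PDGF and VEGF-like ligand gene Pvf1 by −0.72. The list median of 0.14 became 0.0038 with identity centring. Among ligands related to Spätzle, which activate Toll-type receptors, spz3 differed by 0.82, spz by −0.86 and spz6 by −0.97. None of the 14 Hippo, 10 JAK/STAT, 14 Notch or 25 Wingless, Dpp and Hedgehog genes reached 2-fold. The Hedgehog receptor and target gene ptc read 6.63 in Ras and 5.89, below the filter, in WT control.

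Genes of cell division, ribosome biogenesis and genome upkeep lay close to 0. Of 18 kept cell cycle regulators, 0 passed 2-fold, and their differences ran from −0.47 for CycB3, a mitotic cyclin gene, to 0.27 for Cks85A, which encodes a subunit of cyclin-dependent kinases. CycE, the cyclin gene of S-phase entry, read 9.74 in Ras and 9.57 in WT control. The 28 DNA replication genes ran from −0.26 for RnrL, a ribonucleotide reductase subunit gene, to 0.23 for Psf3. The 26 mitosis and cytokinesis genes ran from −0.16 to 0.34, and the 21 ribosome biogenesis genes from −0.24 to 0.42. These spans lie within the 5th and 95th percentiles of all kept genes, −0.52 and 0.45. The list of DNA damage and Fanconi anemia genes, the repair route named in the series title, had 20 of 27 members above 0 and a median of 0.12, which became −0.02 with identity centring. Among all kept genes 54.6% lay above 0. Within the list mre11, a nuclease gene of double-strand break repair, was highest at 0.43, Fancd2 lowest at −0.12, and FANCI at 0.16. The 16 kept insulin, TOR and growth genes spread wider, from −0.59 for the amino acid transporter gene slif, below the filter in Ras, to 0.70 for the neuropeptide gene sNPF beside Ilp8, which is also on that list.

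Death and senescence-linked genes were read the same way. None of 10 kept cell death genes reached 2-fold, and the initiator caspase gene Dronc lay at −0.33 and the caspase gene Strica at −0.47. The damage response regulator p53 read 9.41 in Ras and 9.24 in WT control. Beta-galactosidase activity is a common stain for senescent cells, and the transcript of Gal, which encodes this enzyme in flies, was lower in Ras. It read 8.68 in Ras, 7.54, 7.92 and 6.60 for Sras mutant 1, Sras mutant 2 and the scrib mutant, and 9.74 in WT control, a difference of −1.06. The lysosomal mannosidase genes LManI and LManII lay at −1.52 and −0.94, and LManI read below the filter in Ras (6.34). Of the 19 kept genes of the senescence-linked and lysosome list, Gal and LManI were the 2 at least 2-fold lower, 0 were higher, and the median was −0.19. It stayed below 0 under each scaling tried, between −0.33 and −0.15. Over all kept genes, 1.36% were at least 2-fold lower and 0.701% at least 2-fold higher. Transcript levels do not measure the enzyme activity of the stain.

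Most photoreceptor genes lay above 0 (13 of 18), as did 54.6% of all kept genes, and chp was the 1 member of that list past 2-fold. The gene chp, which encodes the cell surface protein chaoptin of photoreceptors, read 9.59 in Ras, 10.85, 10.63 and 7.72 for Sras mutant 1, Sras mutant 2 and the scrib mutant, and 7.95 in WT control, a difference of 1.64 (3.12-fold). The scrib array was level with WT control and the Sras arrays were above Ras. Outside the photoreceptor list, Ekar, a glutamate receptor gene of the eye, was likewise highest on the Sras arrays, with 8.06 in Ras, 9.04, 8.94 and 4.97 in the mutants and 6.54 in WT control. So was inaC, also outside the list, a protein kinase C gene of the light response, with 7.44 in Ras, 8.68, 8.45 and 5.20 in the mutants and 6.37 in WT control.

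The transcription factor genes gl, Pph13 and ro, which act in photoreceptor development, differed by 0.54, 0.62 and 0.49, with Pph13 below the filter on both arrays and ro below it in WT control. The general neuron gene elav lay at −0.06. In the photoreceptor list 13 of 18 kept genes were above 0 and 1 was at least 2-fold higher, as were 0.701% of all kept genes. The list median was 0.23, or 0.09 with identity centring. The proneural gene ato, which founds the first photoreceptor of each cluster at the morphogenetic furrow, went the other way with 8.33 in Ras and 9.28 in WT control (−0.95). Identity genes of the retina stayed near 0, from −0.44 for eyg to 0.39 for eya. Neuron and glia markers, which can come from the brain or from the disc, had medians of 0.28 and 0.23 over 16 and 13 genes. Their part in the photoreceptor values was not tested.

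Polarity and junction genes lay slightly above WT control. Of 24 kept members 23 were above 0, where 54.6% of all kept genes were. None passed 2-fold and the median was 0.19 (0.05 with identity centring). The furthest was the tumor suppressor gene l(2)gl, a partner of scrib in basolateral polarity, with 10.70 in Ras, 11.28, 11.34 and 11.61 in the mutants and 9.78 in WT control (0.91). The septate junction gene cora followed at 0.52. In contrast, all 26 kept proteasome subunit genes lay below 0, between −0.31 for Rpn3 and −0.02 for Prosalpha4, with a median of −0.15. This median was −0.11 to −0.29 under the other scalings. The 21 respiratory chain genes lay between −0.24 and 0.09.

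Several blood cell genes were at least 2-fold lower in Ras. Crystal cells are hemocytes that melanize wounds, and their prophenoloxidases are the enzymes that start melanin synthesis. PPO2 read 10.18 in Ras, 9.95, 8.76 and 9.68 for Sras mutant 1, Sras mutant 2 and the scrib mutant, and 12.47 in WT control, a difference of −2.29 (4.90-fold lower). PPO1 read 9.44 in Ras, 9.18, 7.93 and 9.01 in the mutants and 11.71 in WT control, a difference of −2.27. WT control stood above the other 4 arrays for both genes. lz, the transcription factor gene of crystal cells, is also active in the eye and read 7.09 in Ras and 7.04 in WT control. Of 12 kept crystal cell and lamellocyte genes PPO1 and PPO2 were the 2 past 2-fold, 7 lay above 0, and the median was 0.10, which became −0.04 with identity centring. Over all kept genes, 54.6% lay above 0 and 1.36% were at least 2-fold lower.

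Plasmatocytes are the phagocytes of the larva and the other main class of hemocytes. Among their genes the phagocytic receptor gene eater read 8.53 in Ras, 8.64, 8.43 and 7.75 in the mutants and 9.72 in WT control (−1.18). NimC2, of the same receptor family, read 6.66 in Ras, 5.10, 5.50 and 5.32 in the mutants and 8.22 in WT control (−1.56), and NimB4 lay at −1.17. The clotting protein gene Hml (−0.78), the peroxidasin gene Pxn (−0.76), the GATA factor gene srp (−0.66) and He (−0.58) also lay below 0. The collagen IV genes vkg and Col4a1, which hemocytes and fat body make, lay at −0.59 and −0.55. The scavenger receptor gene crq lay at −0.01. The 5 members above 0 were Tep3 (0.62), NimB1 (0.28), drpr (0.22), ush (0.06) and Ppn (0.03). Of 25 kept plasmatocyte genes 20 lay below 0 and 3 at least 2-fold below. Of all 7850 kept genes, 3553 lay below 0 and 1.36% at least 2-fold below. The list median was −0.23 and ran from −0.37 to −0.14 under the other scalings. The mean level of the list was 8.57 in Ras, 8.49, 8.38 and 8.49 for Sras mutant 1, Sras mutant 2 and the scrib mutant, and 8.92 in WT control. In these bulk samples, fewer cells of a type and less RNA per cell cannot be told apart.

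**Figure D4:**
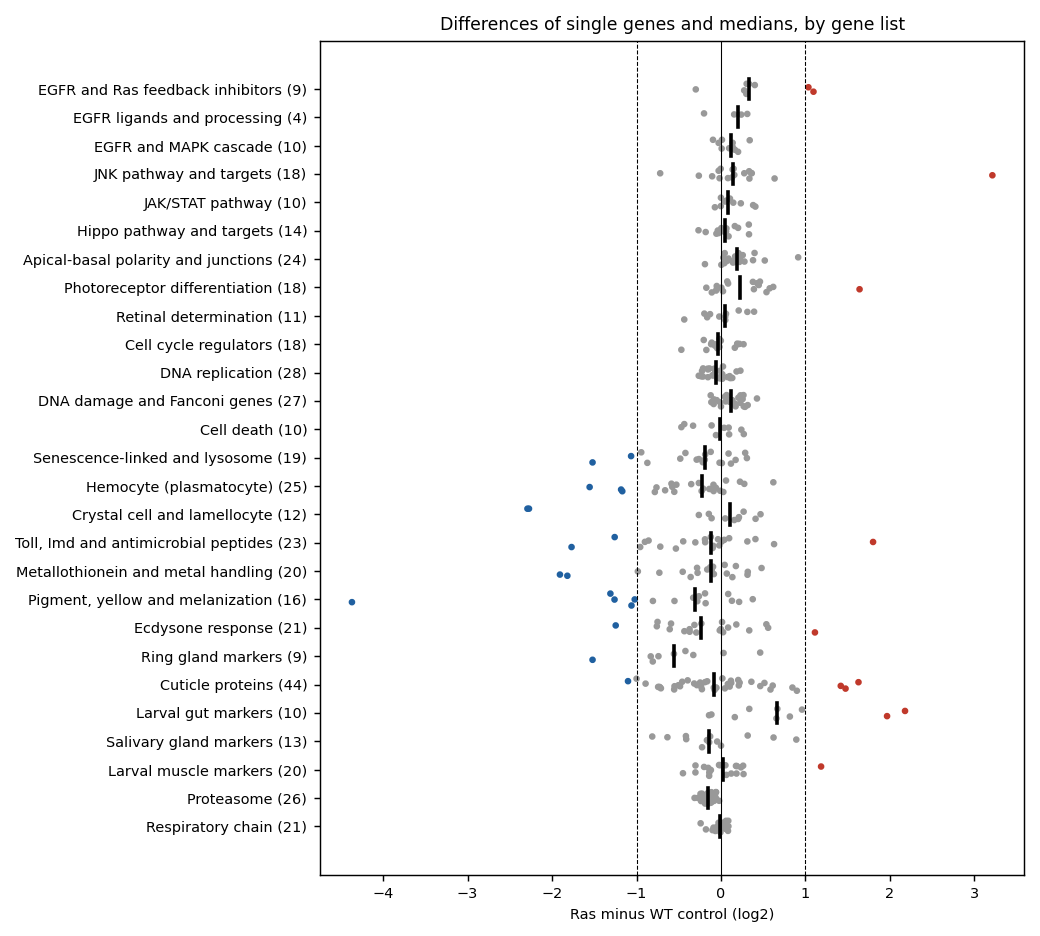
Ras minus WT control differences (x axis, log2) of single genes in 27 gene lists (y axis, number of kept genes in brackets); black bars are list medians, red and blue points are at least 2-fold higher or lower in Ras, and dashed lines mark 2-fold. Cell cycle, replication and respiratory genes cluster near 0, while pigment, plasmatocyte and ring gland genes lean to the left and larval gut genes to the right.

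Pigment and melanization genes also leaned downward. Of 16 kept genes, 5 were at least 2-fold lower and 0 higher, and the median was −0.31 (from −0.47 to −0.19 under the other scalings). The shares over all kept genes were 1.36% lower and 0.701% higher. The gene yellow-d2 read 4.80 in Ras, 4.75, 4.63 and 4.65 in the mutants and 9.17 in WT control. Only WT control was above the filter, so the difference of −4.37 is a bound. The other 4 were above the filter on both arrays. The gene yellow-f, which encodes a dopachrome conversion enzyme of melanin synthesis, lay at −1.31. The gene e, whose product conjugates dopamine with beta-alanine for tanning, read 7.88 in Ras and 9.14 in WT control (−1.26). Pu, which encodes the GTP cyclohydrolase that provides the pterin cofactor, lay at −1.02 and yellow-e at −1.06. Ddc, the dopa decarboxylase gene, lay at −0.81. In the mutant tumors Pu read 7.35, 7.12 and 5.73 and Ddc 7.37, 7.42 and 7.56, far under Ras (9.74 and 10.89) and WT control (10.76 and 11.69).

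Metal-binding and immune peptide genes followed. Metallothioneins are small cysteine-rich proteins induced by copper, zinc and cadmium. MtnD read 6.26 in Ras, 6.11, 5.90 and 6.71 in the mutants and 8.16 in WT control (−1.91). MtnB read 5.86 in Ras, 5.92, 5.82 and 5.91 in the mutants and 7.68 in WT control (−1.82). Both differences end below the filter value in Ras and are bounds. MtnA did not share this pattern, with 13.44 in Ras, 11.27, 10.56 and 12.70 in the mutants and 13.13 in WT control. MTF-1, the factor that induces metallothioneins, differed by 0.32. Among zinc transporter genes Zip88E lay at −0.98 and ZnT41F at −0.73. Of 20 kept genes of the metal list, MtnB and MtnD were the 2 past 2-fold, and the median was −0.12. The share at least 2-fold lower over all kept genes was 1.36%.

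The drosomycin-like peptide gene Drsl5 read 8.07 in Ras, 5.64, 5.31 and 5.75 in the mutants and 9.84 in WT control (−1.77). Drsl2 lay at −1.26 and Drs, the antifungal peptide drosomycin, at −0.90. In contrast the immune-induced gene IM33 read 10.85 in Ras, 7.75, 7.60 and 8.55 in the mutants and 9.05 in WT control (1.80). Of 23 kept genes of the Toll, Imd and peptide list, 1 was at least 2-fold higher, 2 were lower and 16 lay below 0, with a median of −0.12. Of all 7850 kept genes, 3553 lay below 0, 0.701% were at least 2-fold higher and 1.36% at least 2-fold lower. The immune peptide gene BomS6 lies outside this list and was also at least 2-fold higher in Ras (1.22).

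Steroid hormone genes were taken as those of synthesis and those of the response. Ecdysone is made by the Halloween enzymes in the ring gland, an endocrine organ beside the brain. The cholesterol desaturase gene nvd read 7.37 in Ras, 5.55, 4.97 and 4.02 in the mutants and 8.89 in WT control (−1.52). The enzyme genes dib, spok, sad and sro lay at −0.83, −0.81, −0.74 and −0.33. Of 9 kept ring gland markers 7 lay below 0, 1 was at least 2-fold lower, and the median was −0.56. Of all 7850 kept genes, 3553 lay below 0 and 1.36% were at least 2-fold lower. Akh, the adipokinetic hormone gene of the corpora cardiaca in the same gland, read 10.68 in Ras and 10.65 in WT control.

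Among response genes, Eip78C, a nuclear receptor gene induced by ecdysone, read 8.48 in Ras, 6.94, 7.50 and 4.95 in the mutants and 9.72 in WT control (−1.25). Eip93F, a late regulator, read 7.33 in Ras, 6.42, 6.46 and 4.43 in the mutants and 6.22 in WT control (1.11), starting just below the filter. The response list had a median of −0.23 over 21 kept genes, with 1 at least 2-fold higher and 1 lower. The shares over all kept genes were 0.701% and 1.36%. The late ecdysone-induced genes Eig71Ed and Eig71Eg lay at −1.14 and −1.13.

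Gut and other tissue genes were found at the upper end. The digestive protease genes yip7 and Jon65Aiii read 10.57 and 11.22 in Ras and 8.39 and 9.25 in WT control, differences of 2.18 and 1.97. On the 3 mutant arrays yip7 read 5.48, 5.86 and 5.46. Of 10 kept gut markers (of 43 listed) 8 lay above 0, 2 passed 2-fold and the median was 0.66. Over all kept genes, 54.6% lay above 0 and 0.701% were at least 2-fold higher. With identity centring the median of the gut markers was 0.23. The filter was then set anew, so that value covers a different set of gut markers and is not the effect of scaling alone. Gnmt, a methyltransferase gene of fat body metabolism, lay at 1.65 and the muscle gene Mlc2 at 1.18, while the medians of the fat body and muscle lists were 0.00 and 0.02. The part of gut tissue in other higher genes was not tested.

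Cuticle protein genes went both ways. Cpr65Ec, Cpr49Ah and Cpr100A lay at 1.63, 1.47 and 1.42, and Lcp65Ad at −1.10, within a list of 44 kept genes whose median was −0.08. Of 19 kept obstructor, peritrophin and mucin genes 14 lay below 0, as did 3553 of all 7850 kept genes. The chitin-binding protein gene obst-J lay at −1.19, the mucin-related gene Mur89F at −1.08 and obst-F at −0.96. Of detoxification genes, the cytochrome P450 genes Cyp6a17 and Cyp6a23 lay at 1.38 and 1.03 and Cyp9c1 and Cyp6g1 at −1.63 and −1.11. Cyp6a17 and Cyp6a23 are close relatives that sit side by side, and their probe sets may share signal. None of 30 glutathione S-transferase genes reached 2-fold. Of the heat shock genes Hsp68 alone passed 2-fold, with 7.71 in Ras, 11.73, 12.54 and 10.83 in the mutants and 8.75 in WT control (−1.04).

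Most genes past 2-fold belonged to no list, namely 40 of the 55 higher and 83 of the 107 lower genes. The lists held 875 of the 7850 kept genes, so most kept genes of any kind belonged to none. Genes known only by a CG or CR number made up 23 of the 55 and 66 of the 107, against 2755 of the 7850 kept genes. The named remainder on the higher side included sr (1.06), an EGR-type transcription factor gene of tendon cells, retn (1.14), a DNA-binding protein gene, qua (1.20), a villin-like actin-bundling protein gene, and Miox (1.32), an inositol oxygenase gene. On the lower side were the nucleoside transporter gene CNT2 (−1.84), the nuclease gene Sid (−1.46), the lysine-degrading enzyme gene LKRSDH (−1.18), the lysosomal protein gene Cln3 (−1.16) and the water channel gene Drip (−1.13). CNT2 read 6.47 in Ras, near the filter.

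Genes of regional identity differed by less than 2-fold. The Hox gene Dfd, which patterns the maxillary part of the eye-antennal disc, read 8.02 in Ras and 7.17 in WT control (0.85), while Antp and Scr lay at 0.33 and −0.37. Of 16 antennal and head identity genes, 14 peripodial and disc epithelium genes, 13 tracheal genes and 11 thoracic disc genes, 0 passed 2-fold. The antennal list ran from −0.33 to 0.64 and the tracheal list from −0.51 to 0.17. Matrix, integrin and invasion genes (21 kept) ran from −0.76 to 0.52 with 0 past 2-fold. The 9 FGF and PVR signalling genes had a median of −0.25.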

How the data were processed

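RNA from 5 groups, with 1 array each, was analysed. The authors deposited log2 values for 18952 probe sets per array. The labels do not state how the arrays were summarized or scaled. A log2 scale was inferred from the range of 3.32 to 14.9. Array medians differed by up to 0.153, above a limit of 0.1, and the arrays were quantile normalized. Such scaling hides any shift shared by most genes.

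Probe sets with exactly 1 symbol in the platform annotation were used. Symbols were updated through a Release 6 gene table, which held 13544 of them, and 402 probe sets with several symbols and 4720 without a name were set aside. Each gene was read from its probe set of highest mean over the arrays. A gene passed the filter if its level on any array was at or over the 40th percentile over genes and arrays.

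Members, thresholds and 57 gene lists were chosen with earlier results of these data known. Of 1434 list entries 248 had no named probe set. Genes were named from among the 30 highest and 30 lowest with symbols, list members past 2-fold or among the 3 furthest each way, and the members of 8 lists, and many genes that met this rule are not named. Outside this rule, Ddc, Drs, Eig71Eg, FANCI, Sgs7, ct, ey, puc, sad, upd1 and upd2 were chosen after their values were seen. So were the genes with CG numbers. With 1 array per group no test was possible, and the number of arrays limits the precision. The counting code was tested on simulated data with 200 bright genes changed well past the threshold and little added noise. That setting does not show how reliable the counts found here are. Python 3.11.15, NumPy 2.4.6 and pandas 2.3.3 were used, with figures from Matplotlib 3.10.9. The scaling, the filter, the probe set rule and the threshold were varied.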

Additional observations from a re-analysis of the deposited data

Results flagged for a closer look

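Probe sets without a single gene name were outside the comparisons. Of 1261 such probe sets above the filter, 14 were at least 2-fold higher in Ras and 20 lower. The highest difference was 2.07, with 8.95 in Ras, 9.03, 8.55 and 5.93 for Sras mutant 1, Sras mutant 2 and the scrib mutant, and 6.89 in WT control. The lowest was −3.09, with 7.32 in Ras, 5.04, 4.73 and 4.88 in the mutants and 10.41 in WT control. Among the 7850 kept genes the counts were 55 higher (0.701%) and 107 lower (1.36%). The unnamed probe sets of both directions are given here because no gene count used them.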

How the results depend on the processing

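The counts of 55 higher and 107 lower genes stayed within 1.5 times under the deposited values (60 and 83), median centring (61 and 77), identity centring (40 and 152), normalization of the Ras and WT control arrays alone (56 and 92), averaging all probe sets per gene (52 and 106), no filter (58 and 110), a filter on the higher of both arrays (52 and 107) and leaving out genes far lower in all 3 mutant arrays (44 and 76). A filter on the mean of both arrays at the 50th percentile gave 29 and 64 of 5984 kept genes. This filter leaves out dimmer genes, where genes past 2-fold were more frequent. With the 7850 kept genes split into 4 bins by mean level, the dimmest bin (1963 genes) held 26 higher and 45 lower genes. The brightest bin (1963 genes) held 3 and 8. A 1.5-fold threshold gave 217 and 335, and a 3-fold threshold 16 and 25. Of the genes past 2-fold, higher ones made up 34.0%, against 44.2% with median centring and 20.8% with identity centring. Identity centring moved 56 of 57 list medians by at least 0.1 and turned the sign of 23, and 31 changed sign under at least 1 scaling. It shifts all genes alike, so most of these moves follow from the shift itself. Relative to the median of all kept genes, the feedback inhibitor list went from 0.308 to 0.311 and the photoreceptor list from 0.210 to 0.212. The larval gut list (0.641 to 0.349) and the imaginal disc growth factor list (−0.224 to −0.101) changed more. The filter was set anew after centring and kept 8259 genes. No named gene past 2-fold changed sign under the scalings or the probe set mean. The probe set mean moved 7 named genes by more than the SD of all differences. No paired analysis was possible because each group has 1 array.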

Other observations

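CG13135, a gene without a given role, was singled out after its values were seen. It read 11.63 in Ras, 5.01, 4.94 and 5.32 for Sras mutant 1, Sras mutant 2 and the scrib mutant, and 5.10 in WT control, which is below the filter, so its difference is a bound. A second probe set of the same gene was below the filter on every array, with 5.13 in Ras and 5.21 in WT control. Jig, whose WT control value lay just above the filter, had 11.11 in Ras, 6.03, 6.03 and 9.16 in the mutants and 6.45 in WT control. Of genes at least 1 log2 unit above the filter on a single one of these 2 arrays and below it on the other 4, there were 5 in Ras (CG13135, CG31789, CG8997, CG12115 and CG15530) and 9 in WT control, led by CG32073, yellow-d2 and CG3502.

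Some of the genes lay next to each other in the Release 6 gene order. Of the 55 higher genes, 8 (14.5%) had another higher gene within 2 protein-coding genes, against 1.39% of the 7642 kept genes that were neither higher nor lower. Of the 106 lower genes placed in this order, 9 (8.49%) had a lower neighbour, against 2.84%. CG32073 (−2.95), CG12522 (−2.66) and CG32071 (−1.73) formed a run of 3 lower genes, and CG7924 (−2.57) and CG7906 (−2.12) a pair. These 5 genes read lower in Ras and the mutants than in WT control. On the higher side CG7953 (1.98) and CG8997 (2.29) were neighbours. Both were below the filter on the mutant arrays.

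Several further genes without a given role, also chosen after their values were seen, were high on the Sras arrays. CG15522 read 9.41 in Ras, 11.07, 10.79 and 5.24 for Sras mutant 1, Sras mutant 2 and the scrib mutant, and 6.51 in WT control (2.91). CG34247 read 9.70 in Ras, 10.22, 9.78 and 7.42 in the mutants and 7.32 in WT control (2.39). CG6357 was above WT control on all 4 arrays with Ras, with 10.47 in Ras, 10.80, 10.96 and 11.02 in the mutants and 8.68 in WT control (1.80). Second probe sets gave smaller differences for Rnf11 (1.53 and 0.40), nolo (1.13 and 0.15) and Marf1 (1.24 and −0.09).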
